A study of Bos taurus with 12 samples.

Results

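The NR4A receptors NR4A1, NR4A2 and NR4A3 and the coactivator PPARGC1A were followed in the biceps brachii muscle of 12 bulls. The members were found by name: every array probe, control spots left out, whose gene name, gene number, accession or description led to 1 of the 4 symbols. The 4 genes had 5 probes of 21475 on the array and were 4 of the 13631 genes tested. NR4A1 was read by probe A_73_105006, NR4A2 by A_73_115943 and NR4A3 by A_73_106008. PPARGC1A had A_73_108828, the brighter probe, which stood for the gene, and A_73_100612. The bulls were males of 18 to 20 months, 4 in each of 3 groups. CTRL bulls were untreated. DEX bulls received dexamethasone, a synthetic glucocorticoid, in feed at 0.75 mg per head for 42 days. DEX+CLEN bulls received clenbuterol, a beta-adrenergic agonist, over 28 days. The amount of clenbuterol per head went from 2 mg (week 1) to 4 mg (week 2) and then to 6 mg (weeks 3 and 4), and 0.66 mg of dexamethasone per head was fed for 21 days. Clenbuterol was therefore not the only difference between the treated groups, since the dexamethasone course of DEX+CLEN was shorter and its dose lower. From the 8 bulls of each group the 4 with the best RNA were hybridised, so they were not a random draw. How long before slaughter the last dose was fed is not stated in the labels.

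The NR4A receptors, also known as Nur77, Nurr1 and NOR1, are orphan nuclear receptors. Their activity follows mostly from how much of them is made and from modification of the protein, rather than from a classical ligand. Their genes are immediate early genes, switched on and off rapidly. In skeletal muscle, beta-adrenergic agonists and exercise induce them through cAMP, calcium and CREB, and they are linked to genes of glucose and fat use. PPARGC1A encodes PGC1alpha, a coactivator of nuclear receptors that drives mitochondrial biogenesis. Exercise and beta-adrenergic signals induce it through the same second messengers.

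Each array was 1 bull, and 53.2% to 68.7% of its spots were well above background. The 14 measured markers of skeletal muscle fibres, such as ACTA1, MB and TNNC2, had mean levels at the 94.4 percentile or higher among all genes tested. TNNT3 among them ran from 0.99 to 7.48 on the log2 scale over the arrays. Its part in the mean level of fibre markers was not tested. TNNI2 did not pass the filter on dim probes. The scan day and the groups were partly mixed: CTRL replicates 1 to 3 were scanned on day 1, CTRL replicate 4, DEX replicates 1 to 3 and DEX+CLEN replicates 1 to 3 on day 2, DEX replicate 4 on day 3 and DEX+CLEN replicate 4 on day 4. For DEX replicate 4 the header and the label code disagree on the slide; the header was followed, so its scan day is less sure. Negative-control spots had a mean signal of 98.63 to 123.22 on day 2 and of 59.5 to 73.06 on the other days. DEX replicate 1 had the lowest mean level of fibre markers of all arrays (6.78 on the log2 scale, against 7.23 to 7.95 in the other 11). The number of arrays limits the precision.

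All 5 probes were well above background on all 12 arrays, and repeat spots of a probe differed by at most 0.22 on the log2 scale. Levels below are log2 signal relative to the array's 75th percentile of signal, so 0 is that percentile. They compare animals for 1 probe, not probes with each other. In whole muscle, fewer cells of a type and less RNA per cell cannot be told apart.

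NR4A1 was the steadiest of the 4 genes. In CTRL replicates 1 to 4 its level was 4.19, 3.56, 4.52 and 5.35. In DEX it was 3.29, 4.84, 4.29 and 5.81. In DEX+CLEN it was 3.51, 3.96, 4.70 and 5.16. The highest and the lowest value both belonged to DEX bulls, 5.73-fold apart, and the 3 groups covered nearly the same range. Group means were 4.41 ± 0.74, 4.56 ± 1.05 and 4.33 ± 0.74 (SD, n = 4 each).

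NR4A2 levels were close together in 3 of the 4 CTRL bulls and scattered in DEX+CLEN. CTRL replicates 1 to 4 read 1.02, 1.42, 1.48 and 2.44. DEX replicates read 1.37, 1.85, 0.93 and 3.77. DEX+CLEN replicates read -1.58, -0.21, 2.23 and 0.06. Thus 3 of the 4 DEX+CLEN bulls lay below every CTRL and every DEX bull, and replicate 3 lay within both ranges. The means were 1.59 ± 0.60 in CTRL, 1.98 ± 1.25 in DEX and 0.12 ± 1.58 in DEX+CLEN (SD, n = 4 each).

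NR4A3 showed the widest range of the members. Its level in CTRL replicates 1 to 4 was 3.70, 1.76, -0.56 and 0.63. It was -1.85, 1.48, 3.68 and 3.49 in DEX. It was -3.53, -0.90, -3.07 and 3.74 in DEX+CLEN. The lowest and the highest of all 12 values were both DEX+CLEN bulls, replicates 1 and 4, and their signals differed 154.7-fold. Within CTRL, where no drug was given, the highest bull had 19.1 times the signal of the lowest, and within DEX the ratio was 46.3. Of the DEX+CLEN bulls, 3 lay below every CTRL bull and 1 lay above every CTRL bull. The means were 1.38 ± 1.81, 1.70 ± 2.57 and -0.94 ± 3.33 in CTRL, DEX and DEX+CLEN (SD, n = 4 each).

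PPARGC1A was high in most CTRL and DEX bulls. On the brighter probe the CTRL replicates read 6.71, 6.02, 4.18 and 5.55. The DEX replicates read 3.59, 5.63, 5.99 and 6.88. The DEX+CLEN replicates read 2.81, 4.42, 2.52 and 5.98. DEX+CLEN replicates 1 and 3 were below all CTRL and DEX bulls, and the other two lay within the CTRL range. Means were 5.62 ± 1.07, 5.52 ± 1.39 and 3.93 ± 1.60 (SD, n = 4 each), and the highest signal of the 12 was 20.6 times the lowest. The second probe ordered the bulls almost identically: its deviations from the group means followed those of the first with r = 0.995 over the 12 arrays, and its group means were 0.43, 0.49 and -1.38.

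**Figure D1:**
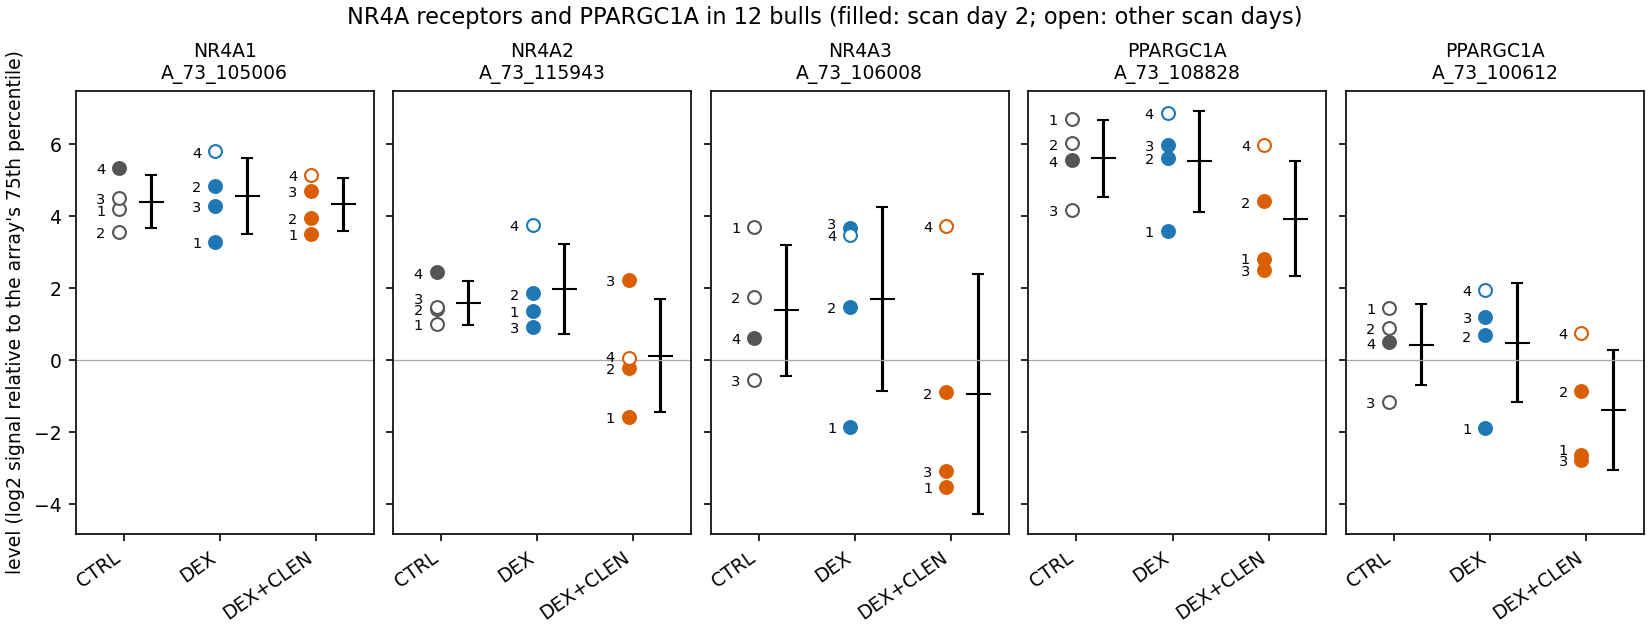
Level of each probe (y axis, log2 signal relative to the array's 75th percentile) in CTRL, DEX and DEX+CLEN; points are bulls with their replicate number, filled for scan day 2 and open for other days, and bars give the mean ± SD of 4. NR4A1 covers about the same range in every group, whereas NR4A3 runs from -3.53 to 3.74 within DEX+CLEN alone.

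Bulls of the same group differed more in these genes than in most others. The pooled within-group SD, which removes the group means, was 2.64 log2 units for NR4A3 and ranked 8 of 13631 genes. It was 1.37 for PPARGC1A (rank 137), 1.21 for NR4A2 (rank 216) and 0.86 for NR4A1 (rank 761). The median gene had 0.35. Dim probes vary more, so each member was also set among genes within 1 log2 unit of its own mean level. There NR4A1 stood at the 98.5 percentile of spread, NR4A2 at 99.1, NR4A3 at 99.9 and PPARGC1A at 99.6. These ranks describe the 12 arrays and carry no test.

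**Figure D2:**
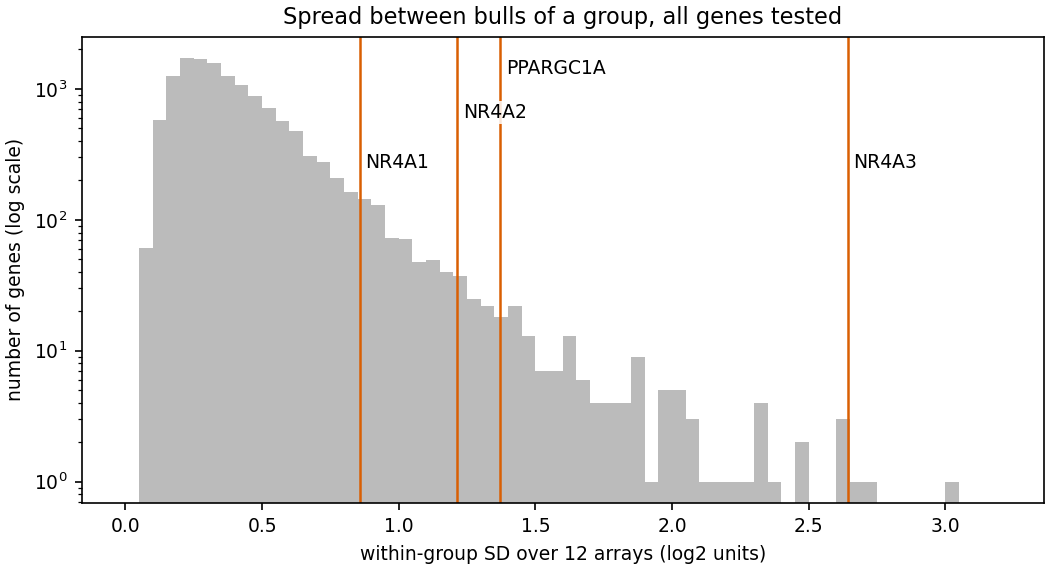
Histogram of the within-group SD (x axis, log2 units) of all 13631 genes, with the number of genes on a log y axis; orange lines mark the members. NR4A3 at 2.64 lies in the far tail and NR4A1 at 0.86 lies nearest to the bulk of genes, whose median is 0.35.

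Dexamethasone alone against control asks how a long glucocorticoid course changed the muscle. In DEX the mean levels of the members differed from those of CTRL by 0.39 or less on the log2 scale, with wide intervals. The log2 difference of DEX minus CTRL was 0.15 ± 0.54 for NR4A1 (SE; 95% interval -1.01 to 1.32), 0.39 ± 0.75 for NR4A2 (-1.24 to 2.02), 0.32 ± 1.62 for NR4A3 (-3.20 to 3.84) and -0.09 ± 0.84 for PPARGC1A (-1.93 to 1.75). None of the 4 passed limma's test (adjusted p from 0.885 to 0.980, n = 4 each), and 0 of the 4 had an unadjusted p under 0.05. Of all genes tested, 0.624% were called in this comparison. The intervals of NR4A3 and PPARGC1A still include several-fold changes either way. The sign for PPARGC1A was not stable: it turned to 0.06 on the second probe, to 0.55 without DEX replicate 1 and to 0.68 with scan day as a 2-level term. The difference of NR4A3 went to 1.50 without DEX replicate 1 and to 1.92 with that term (limma adjusted p = 0.669 and 0.810).

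Dexamethasone with clenbuterol against control adds the beta-adrenergic agonist. The means of NR4A2, NR4A3 and PPARGC1A were lower in DEX+CLEN than in CTRL and that of NR4A1 differed by 0.07, but no difference passed the test. NR4A2 differed by -1.46 ± 0.75 on the log2 scale (SE; 95% interval -3.09 to 0.17; a 2.76-fold lower mean; limma adjusted p = 0.455). NR4A3 differed by -2.32 ± 1.62 (-5.84 to 1.2; 5.0-fold lower; limma adjusted p = 0.583). PPARGC1A differed by -1.68 ± 0.84 (-3.52 to 0.15; 3.21-fold lower; limma adjusted p = 0.443). NR4A1 differed by -0.07 ± 0.54 (-1.24 to 1.09; limma adjusted p = 0.971), and its sign turned with normexp background correction, array weights and the 2-level scan day term. With scan day in all its levels the NR4A1 difference was -1.29, which rests on CTRL replicate 4 as the only CTRL bull of day 2. Thus 0 of 4 members were called and 0 had an unadjusted p under 0.05, where 0.044% of all genes were called. This comparison and that of DEX alone share their CTRL bulls. Leaving out DEX+CLEN replicate 4 moved NR4A3 to -3.88 and PPARGC1A to -2.37, and leaving out DEX+CLEN replicate 1 moved NR4A2 to -0.89, NR4A3 to -1.46 and PPARGC1A to -1.31. None of these passed (limma adjusted p from 0.256 to 0.777).

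In the combination against dexamethasone alone, the means of NR4A2, NR4A3 and PPARGC1A were again lower and none passed. NR4A2 differed by -1.86 ± 0.75 on the log2 scale (SE; 95% interval -3.49 to -0.22; 3.62-fold lower in DEX+CLEN; limma adjusted p = 0.393). NR4A3 differed by -2.64 ± 1.62 (-6.16 to 0.88; 6.24-fold lower; limma adjusted p = 0.593) and PPARGC1A by -1.59 ± 0.84 (-3.43 to 0.25; 3.01-fold lower; limma adjusted p = 0.531). NR4A1 differed by -0.22 ± 0.54 (limma adjusted p = 0.917). NR4A2 was the 1 member with an unadjusted limma p under 0.05, where 11% of all genes had such a p. After adjustment 0 of 4 passed, beside 0.0147% of all genes. Without DEX replicate 1 the differences were -2.06 for NR4A2, -3.83 for NR4A3 and -2.24 for PPARGC1A, with a limma adjusted p of 0.241 to 0.310. Without DEX replicate 4 they were -1.26, -2.04 and -1.14 (limma adjusted p from 0.505 to 0.686), and without DEX+CLEN replicate 1 they were -1.29, -1.78 and -1.22 (limma adjusted p from 0.598 to 0.789). Without DEX+CLEN replicate 4 they were -1.83, -4.20 and -2.27 (limma adjusted p from 0.328 to 0.498). NR4A2 no longer had an unadjusted limma p under 0.05 without DEX replicate 4 or without DEX+CLEN replicate 1, 2 or 4. The same held with array weights, with scan day in all its levels and in a fit on the 2 groups compared.

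An exact two-sided permutation test of each gene's group means, over all 70 splits of 4 against 4, can go no lower than p = 0.0286. It gave 0.114 for NR4A2 in both comparisons of DEX+CLEN, 0.286 and 0.314 for NR4A3 against CTRL and against DEX, and 0.171 in both for PPARGC1A. Adjusted over the 12 tests, the lowest was 0.514. Groups overlapped in all 12 gene comparisons, and the share of all genes with overlapping groups was not counted.

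The differences were also taken on scan day 2 and on the other days pooled. On scan day 2, which held 3 bulls of each treated group, DEX+CLEN minus DEX was -0.08 for NR4A1, -1.24 for NR4A2, -3.60 for NR4A3 and -1.82 for PPARGC1A. The exact permutation p was 0.9, 0.4, 0.2 and 0.2, where 3 against 3 cannot go below 0.1. On the other days pooled, with 1 DEX bull of day 3 and 1 DEX+CLEN bull of day 4, it was -0.65, -3.71, 0.25 and -0.90. Against CTRL the days split further. The 3 CTRL bulls of the other days were all scanned on day 1. Differences on the other days thus compare bulls of different scan days. With 3 DEX+CLEN bulls and 1 CTRL bull on day 2, NR4A3 differed by -3.13 and PPARGC1A by -2.30, and with 1 DEX+CLEN bull and 3 CTRL bulls on the other days they differed by 2.11 and 0.34. NR4A1 differed by -1.29 on day 2 and by 1.07 on the other days. NR4A2 was lower in both parts (-2.29 and -1.24). With scan day as a 2-level term, the difference from CTRL was -1.27 for NR4A2, -0.72 for NR4A3 and -0.91 for PPARGC1A. The part of the scan day in the lower NR4A3 and PPARGC1A means was not tested.

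**Figure D3:**
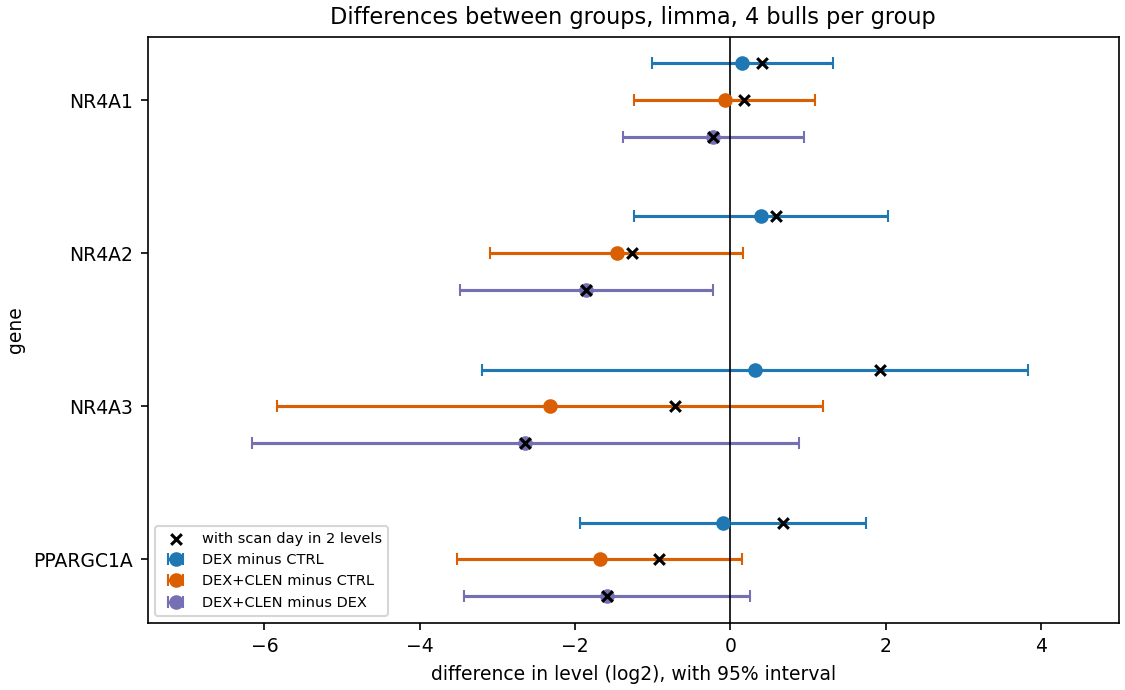
Difference in level between groups (x axis, log2) for each gene (y axis), with 95% intervals from limma, 4 bulls per group; black crosses give the estimate with scan day as a 2-level term. All intervals but that of NR4A2 in DEX+CLEN minus DEX (-3.49 to -0.22) include 0, and the NR4A3 estimate against CTRL moves from -2.32 to -0.72 with the scan day term.

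Although the groups did not differ beyond the test, NR4A3 and PPARGC1A varied together from bull to bull. After the group means were removed, their levels correlated with r = 0.959 over 12 arrays (exact permutation within groups, p = 0.000289, adjusted p = 0.00174 over the 6 pairs of members) and rho = 0.923 (exact permutation p = 0.000506, adjusted p = 0.00304). In CTRL both genes ranked the bulls as replicates 1, 2, 4 and 3 from high to low. In DEX, replicate 1 was the lowest in both and replicates 3 and 4 the highest. In DEX+CLEN, replicate 4 was the highest in both, and replicates 1 and 3 the lowest. Each log2 unit of NR4A3 went with 0.50 log2 units of PPARGC1A, and they shared 91.9% of their within-group variance. The relation held without the 2 bulls farthest from the median NR4A3 level, DEX+CLEN replicates 1 and 3 (r = 0.942, exact permutation p = 0.00174, n = 10). It kept r from 0.943 to 0.970 as each array was left out (exact permutation, adjusted p at most 0.00694). Among the 6 arrays of scan day 2 whose group had company there, r was 0.943 (exact permutation p = 0.0556 over 36 orders). With scan day in 2 levels (day 2 against the other days) removed as well as group, r was 0.939 over all 12.

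NR4A1 and NR4A2 moved together less tightly. Their within-group r was 0.701 (exact permutation p = 0.0234, adjusted p = 0.0703) and rho was 0.818 (exact permutation p = 0.00506, adjusted p = 0.0152), so that only the rank measure passed after adjustment. Without DEX replicates 1 and 4, the bulls farthest from the median NR4A1 level, r was 0.639 (exact permutation p = 0.0825, n = 10). On scan day 2 it was 0.659 (exact permutation p = 0.139, n = 6). As each array was left out, r ran from 0.561 (without DEX replicate 4) to 0.806 (without DEX+CLEN replicate 3). The adjusted exact permutation p then ran from 0.0226, without DEX+CLEN replicate 4, to 0.274, and that was the only array whose removal let r pass.

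The other pairs did not pass. NR4A1 had r = 0.472 with NR4A3 and r = 0.489 with PPARGC1A (exact permutation, adjusted p = 0.250 for each), and these values dropped to 0.252 and 0.261 without DEX replicate 1, and to 0.228 and 0.164 without DEX replicates 1 and 4. On scan day 2 they were 0.522 and 0.446. NR4A2 had r = 0.040 with NR4A3 and r = 0.077 with PPARGC1A (exact permutation, adjusted p = 0.924 for each). Without DEX replicate 4 and DEX+CLEN replicate 1, these turned to -0.568 and -0.573, and on scan day 2 they were -0.074 and -0.201. The rank correlations of these 4 pairs ran from 0.084 to 0.364 (exact permutation, adjusted p from 0.533 to 0.832). DEX+CLEN replicate 3 shows how the pairs part: it had the highest NR4A2 level of its group and the lowest PPARGC1A level.

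**Figure D4:**
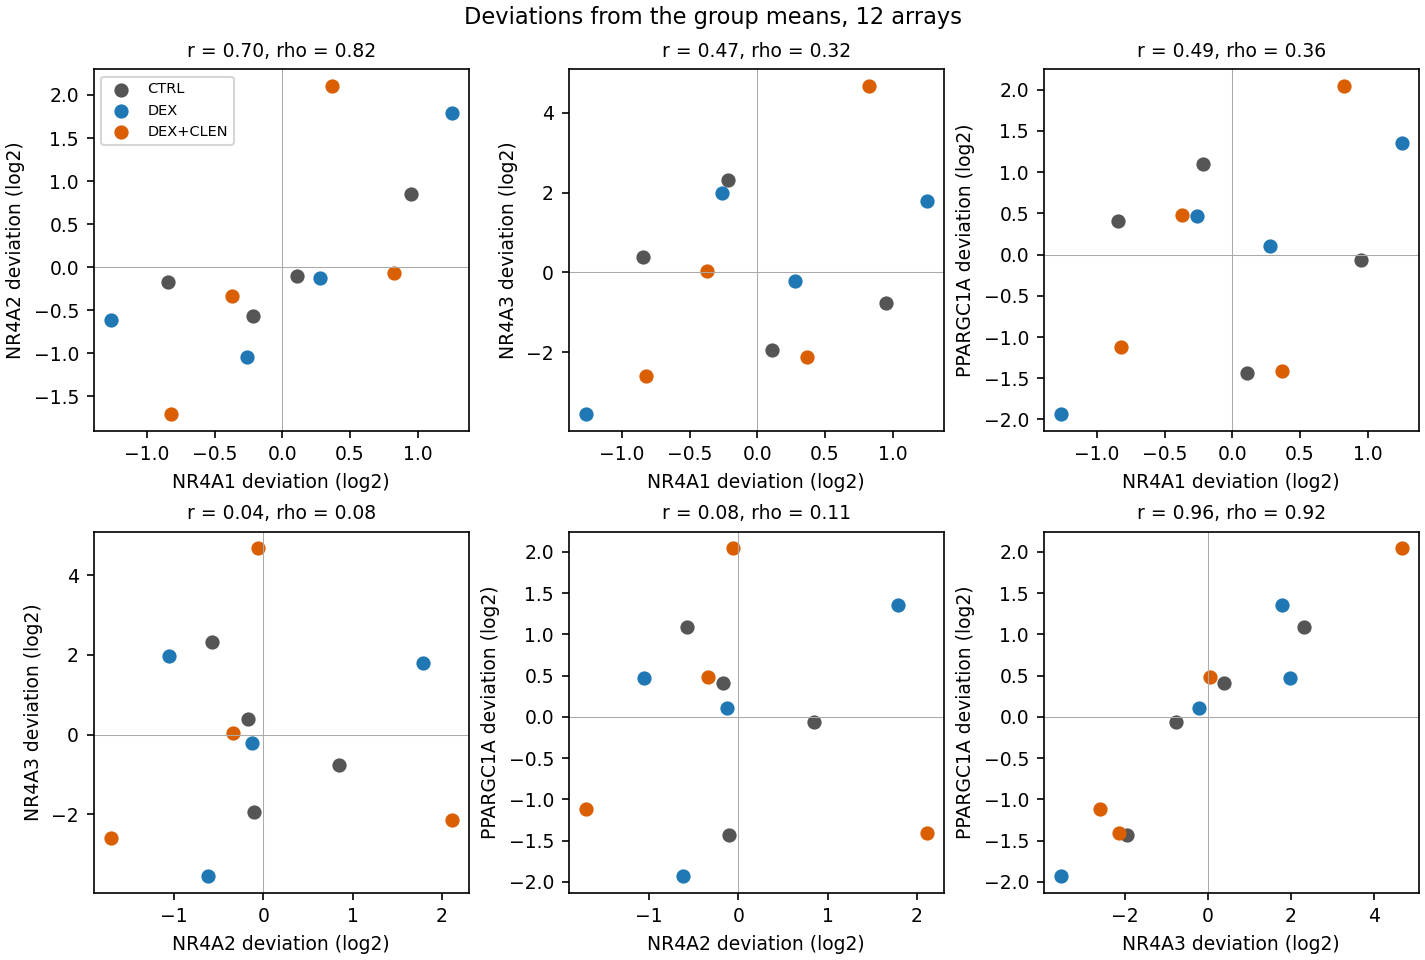
Deviation of each bull from its group mean for the 6 pairs of members (both axes in log2 units; 12 bulls, coloured by group), with Pearson's r and Spearman's rho above each panel. The NR4A3 and PPARGC1A panel is close to a line (r = 0.96), and the panels of NR4A2 against NR4A3 and PPARGC1A show no line (r = 0.04 and 0.08).

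The genes named as closest or most opposite to each member in within-group pattern were taken from the tested genes with a symbol. Places and counts of genes cover all others tested. These correlations share the same 12 arrays and are descriptions without a test. PPARGC1A was the second nearest of 13630 genes to NR4A3, and NR4A3 the second nearest to PPARGC1A. Nearest to both was SLC25A33, a mitochondrial carrier of pyrimidine nucleotides, with r = 0.977 to NR4A3 and r = 0.986 to PPARGC1A. Its levels were 2.09, 1.59, 0.68 and 1.16 in CTRL, 0.32, 1.76, 2.14 and 2.41 in DEX, and -0.51, 0.73, -0.73 and 1.88 in DEX+CLEN. SLC25A33 therefore had the same low bulls as PPARGC1A, DEX replicate 1 and DEX+CLEN replicates 1 and 3. Each log2 unit of PPARGC1A went with 0.68 of SLC25A33, and r was 0.999 on scan day 2. Like PPARGC1A, it passed in no group comparison: its log2 difference was -1.04 ± 0.59 against CTRL (SE; limma adjusted p = 0.499) and -1.31 ± 0.59 against DEX (limma adjusted p = 0.443) in DEX+CLEN.

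After SLC25A33 and PPARGC1A, NR4A3 was closest to NIPSNAP1, a mitochondrial protein (r = 0.918), RRAGC, a Rag GTPase of amino acid sensing (0.907), and INPP5E, an inositol phosphatase (0.90). The most opposite were DUS4L (r = -0.867), SLC25A28, a mitochondrial iron importer (-0.862), and SSBP2 (-0.857). PPARGC1A was next closest to WDR81 (r = 0.932), PIP5K3, a phosphoinositide kinase (0.925), and SCYL2 (0.924). Its most opposite were SOD2, the mitochondrial superoxide dismutase (r = -0.903), WDR77 (-0.898) and WBP1 (-0.890). SCYL2 was well above background on only 5 arrays and PIP5K3 on 11.

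NR4A1 kept other company. It was closest to KALRN (r = 0.958), GGA2, a Golgi adaptor (0.947), PTPN14, a tyrosine phosphatase (0.942), ALKBH5, an RNA demethylase (0.942), and AKAP12, a scaffold that anchors protein kinase A (0.930). The most opposite were NUDT5 (r = -0.945), the phospholipase PLD2 (-0.943) and RAB5A, a GTPase of early endosomes (-0.919). NR4A1 had 22 genes with r above 0.9, against 6 for NR4A3, 9 for PPARGC1A and 1 for NR4A2. That gene was ZCCHC10 (r = 0.910). Next to NR4A2 came KLHDC9 (0.891), the histone methyltransferase EZH1 (0.878), the transcription factor KLF4 (0.849) and NRSN2 (0.840). CCDC112 (r = -0.914), RIOK3 (-0.896) and TIMM10B (-0.881), a helper of mitochondrial import, ran opposite to it. GGA2 and KLHDC9 were well above background on 6 of 12 arrays, NRSN2 on 8, and CCDC112 and TIMM10B on 10.

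Known partners and co-induced genes were set against the members in the same way. Of 33 such genes 29 were measured (EGR3, SIK1, PPARGC1B and HK2 did not pass the filter), which gave 116 pairs. No pair passed after adjustment (exact permutation within groups; adjusted p from 0.0755 to 0.989), and none passed by rank correlation. At an unadjusted p under 0.05 there were 14 pairs: 8 with NR4A1, 5 with NR4A2, 0 with NR4A3 and 1 with PPARGC1A. The share of all genes at this p was not computed, so these counts are not a result about the partners. Of 13630 other genes, 207 had r above 0.8 with NR4A1, 16 with NR4A2, 63 with NR4A3 and 97 with PPARGC1A. NR4A1 was nearest to SLC2A4, the insulin-responsive glucose transporter (r = 0.884, exact permutation adjusted p = 0.107), and PYGM, muscle glycogen phosphorylase (r = 0.839, adjusted p = 0.0755). Some immediate early genes followed, with r = 0.798 for ATF3, 0.763 for JUN, 0.738 for FOS, 0.733 for DUSP1 and 0.687 for BTG2. Others were lower: FOSB had 0.574, EGR1 0.417, MYC 0.373, IER2 0.024 and JUNB -0.094. On scan day 2 these were 0.588, 0.550, -0.562, 0.324 and 0.609. NR4A2 was nearest to RXRG, a retinoid X receptor of the kind that pairs with NR4A1 and NR4A2 (r = 0.826, exact permutation adjusted p = 0.124), and then to FOS (0.801), JUN (0.761) and DUSP1 (0.751), a phosphatase that ends MAP kinase signals.

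The same genes had other values with NR4A3 and PPARGC1A. FOS had r = 0.325 with NR4A3 and 0.239 with PPARGC1A, and JUN had 0.130 and 0.202. ATF3 had 0.487 and 0.532, against 0.473 with NR4A2, and MYC had 0.325 and 0.354, against 0.283 with NR4A2. Without the 2 bulls farthest from each member's median level, FOS had r = 0.588 with NR4A3 and 0.575 with PPARGC1A. It then had 0.789 with NR4A1 and 0.729 with NR4A2. JUN had 0.130, 0.278, 0.683 and 0.573 in the same order. On scan day 2 FOS had 0.201, 0.014, 0.769 and 0.949 in that order. The difference between members in these correlations was not tested. The pair under an unadjusted p of 0.05 for PPARGC1A was PPARD, a receptor it coactivates (r = 0.734, exact permutation adjusted p = 0.159), which was well above background on only 4 arrays. PDK4, the kinase that holds back pyruvate dehydrogenase, had r = 0.367 with PPARGC1A. TFAM, the mitochondrial transcription factor downstream of PPARGC1A, had 0.210, and CPT1B, which brings fatty acids into mitochondria, had -0.451.

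**Figure D5:**
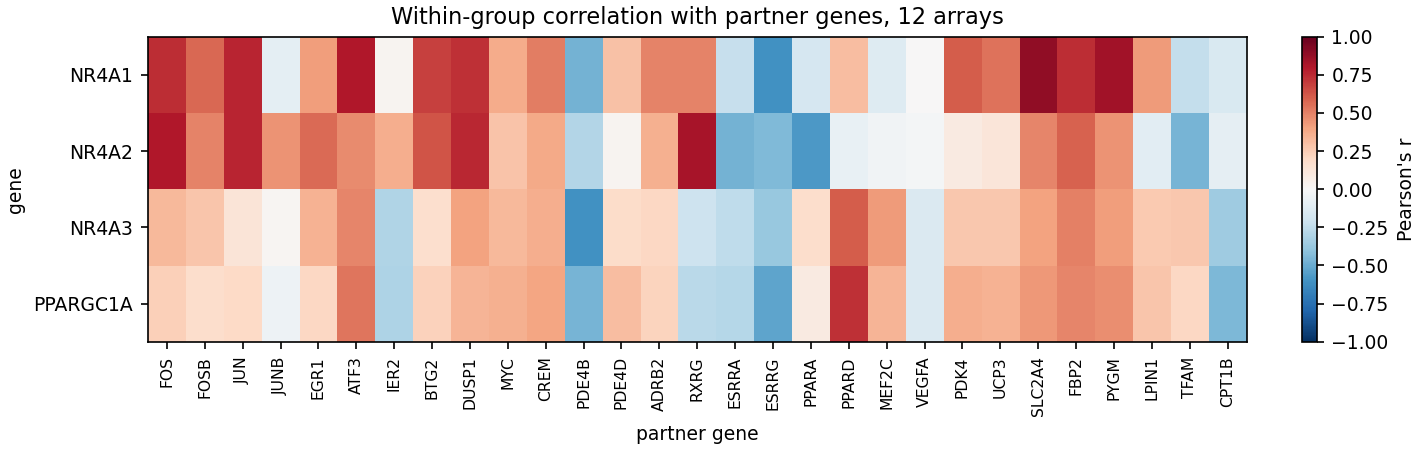
Within-group Pearson correlation (colour, -1 to 1) of each member (rows) with 29 measured partner genes (columns) over 12 arrays. The strongest colours are in the NR4A1 row (SLC2A4 0.884, PYGM 0.839) and the NR4A2 row (RXRG 0.826, FOS 0.801); no cell passed after adjustment.

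The wider pathways were described by lists. None of the genes on the 5 pathway lists was called by limma in any comparison, so each list is given as the number with an unadjusted p under 0.05, beside 12.3%, 12.1% and 11% of all genes in DEX minus CTRL, DEX+CLEN minus CTRL and DEX+CLEN minus DEX. The median log2 difference of all genes was 0.03, 0.03 and 0.02. Of 25 measured genes that carry cAMP and calcium signals to the NR4A genes (30 listed), 4, 5 and 2 had such a p, and the medians were 0.14, 0.21 and 0.04. PDE4D, which breaks down cAMP, differed by 1.33 ± 0.29 in DEX minus CTRL (SE; limma adjusted p = 0.0699). CREM, which encodes cAMP-responsive activators and repressors, was 4.81 in CTRL, 4.79 in DEX and 3.57 in DEX+CLEN, a difference of -1.24 ± 0.28 from CTRL (SE; limma adjusted p = 0.165). RCAN1, an inhibitor and target of calcineurin, differed by 1.90 ± 0.50 from CTRL in DEX+CLEN (SE; limma adjusted p = 0.214).

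Of 28 measured immediate early and exercise response genes (32 listed), 8, 3 and 4 had an unadjusted p under 0.05 in the same order of comparisons. Their medians were 0.60, 0.23 and -0.42, with 22 of 28 above 0 in DEX minus CTRL and 19 of 28 below 0 in DEX+CLEN minus DEX, where 45.4% and 47.7% of all genes were below 0. IER3, an early response gene of stress signals, differed by 1.89 ± 0.51 (SE; limma adjusted p = 0.136) and KLF6, a transcription factor, by -0.96 ± 0.22 (SE; limma adjusted p = 0.0774) in DEX minus CTRL. In DEX+CLEN minus CTRL, 20 of 28 were above 0. KLF10 differed there by -0.99 (limma adjusted p = 0.260), and IER5 by 1.29 and IER2 by 0.53 (limma adjusted p = 0.381 for each). In DEX+CLEN minus DEX, GADD45A, a growth arrest gene, differed by 1.32 (limma adjusted p = 0.312). KLF6 differed there by 0.64 (limma adjusted p = 0.314) and IER3 by -1.36 (limma adjusted p = 0.362).

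The proteins that NR4A receptors and PPARGC1A work with gave 5, 9 and 3 of 33 measured genes (35 listed), with medians of 0.16, 0.18 and -0.04. RXRG differed by 0.96 ± 0.23 from CTRL in DEX+CLEN (SE; limma adjusted p = 0.183). ESRRG, an estrogen-related receptor that PPARGC1A coactivates, differed by 2.41 ± 0.97 in DEX minus CTRL (SE; limma adjusted p = 0.330). TFB2M, a mitochondrial transcription factor, differed by -0.64 ± 0.16 in DEX+CLEN minus DEX (SE; limma adjusted p = 0.179).

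Energy genes linked to the NR4A receptors in muscle gave 2, 2 and 0 of 16 measured genes (18 listed), with medians of -0.17, -0.11 and 0.06. LPIN1, which has roles in lipid synthesis and as a coactivator, differed by -1.13 ± 0.46 from CTRL in DEX+CLEN (SE; limma adjusted p = 0.367). CAV3, the caveolin of muscle, differed by 0.71 ± 0.21 in DEX minus CTRL (SE; limma adjusted p = 0.170). Energy genes linked to PPARGC1A gave 3, 2 and 4 of 25 measured genes (30 listed), with medians of 0.20, -0.14 and -0.27. In DEX+CLEN minus DEX, 22 of these 25 were below 0, where 47.7% of all genes were. CYCS, cytochrome c, differed there by -0.73 ± 0.23 (SE; limma adjusted p = 0.286), NNT, the mitochondrial transhydrogenase, by -0.53 ± 0.20 (SE; limma adjusted p = 0.358) and GOT1, an aspartate aminotransferase, by -0.51 ± 0.21 (SE; limma adjusted p = 0.405). PDK4 was 4.63 in CTRL, 3.03 in DEX and 3.22 in DEX+CLEN, and its difference did not pass for DEX (-1.60 ± 0.35; SE; limma adjusted p = 0.0745) or the combination (-1.41 ± 0.35; SE; limma adjusted p = 0.186). The counts of these lists describe them and were not tested as sets.

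Markers of other cell types were set beside the members. Of the marker genes, CD3E of T cells alone was called, lower in DEX than in CTRL (-1.74 ± 0.31; SE; limma adjusted p = 0.0305). All 11 measured fibroblast markers were below 0 in DEX minus CTRL (median -1.19, 6 with an unadjusted p under 0.05) and above 0 in DEX+CLEN minus DEX (median 0.87, 1 with such a p), and their part in the members' values was not tested. Of 14 leukocyte markers, 10 were below 0 in DEX minus CTRL (median -0.61) and 12 in DEX+CLEN minus CTRL (median -0.41). Only 6 of these 14 were well above background on all arrays. Of all genes, 45.4% were below 0 in DEX minus CTRL, 46.3% in DEX+CLEN minus CTRL and 47.7% in DEX+CLEN minus DEX. Mean levels of 14 of 18 leukocyte markers ran from -2.29 to -2.07 in CTRL, -3.61 to -1.94 in DEX and -2.96 to -2.37 in DEX+CLEN, with CD3D, CD4, ITGAM and MS4A1 not passing the filter. For 11 of 12 fibroblast markers the ranges were 1.09 to 1.50, -0.71 to 1.21 and 0.32 to 1.44, with TCF21 not passing. The 14 fibre markers ran from 7.46 to 7.82, 6.78 to 7.94 and 7.23 to 7.95. For 11 of 12 endothelial markers (FLT1 not passing) they were -1.05 to -0.61, -1.01 to -0.39 and -0.69 to -0.45. For 9 of 10 smooth muscle and pericyte markers (NOTCH3 not passing) they were 0.97 to 1.23, 1.07 to 1.46 and 1.1 to 1.66. For 9 of 11 adipocyte markers, ADIPOQ and LEP not passing, they were -2.47 to -1.78, -2.65 to -0.97 and -2.80 to -1.70. Only 4 of these 9 were well above background on all arrays. Only 3 of 9 blood markers, HBA, HBB and AHSP, passed, with -2.30 to -1.37, -2.53 to -1.50 and -2.34 to -0.27.

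Within groups, these 7 marker means, the negative-control signal and the percent of spots well above background were each correlated with each member. None of the 36 relations had an exact permutation p under 0.05 (adjusted p from 0.916 to 0.971). The largest for NR4A3 were smooth muscle and pericyte markers (r = 0.586, rho = 0.503) and negative-control signal (r = -0.564, rho = -0.552). For PPARGC1A they were the negative-control signal (r = -0.533, rho = -0.566) and fibre markers (r = 0.445, rho = 0.371). On scan day 2 the correlation with negative-control signal was 0.122 for NR4A3 and -0.204 for PPARGC1A. Fibre markers had r = 0.799 with NR4A3 and 0.870 with PPARGC1A without DEX+CLEN replicates 1 and 3. Those bulls lay farthest from the median level of both genes. DEX replicate 1, the array of lowest fibre marker level (6.78), was kept there. On scan day 2 the fibre markers had r = 0.329 with NR4A3 and 0.233 with PPARGC1A.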

How the data were processed

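Messenger RNA of 12 biceps brachii samples was hybridised to 1-colour Agilent arrays. Agilent Feature Extraction 9.5.1.1 made the deposited linear spot intensity, per the file headers. The authors' deposited value table is linear intensity too and ranked spots as the scanner signal did (Spearman correlation of at least 0.999996 per array). How it was made is not stated in the labels, and its medians of 137.25 to 181.17 per array were not centred.

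The log2 of the processed signal, computed here from the deposited intensity, was taken relative to each array's 75th percentile. Outlier spots (1 to 7 per array) were left out, saturated spots (3 to 10) were kept, and repeat spots were averaged. The 14703 of 21475 probes well above background on at least 4 arrays were kept, and the probe of highest mean stood for a gene (878 genes had several). Names were updated through RefSeq's table of ARS-UCD2.0. Probes were named through a gene number (9993), the description's human match (3482), an accession (3408) or a symbol (385), and 4207 kept the file's name. No sequence or coordinate was used.

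The comparison of groups used lmFit with 3 group means over 12 arrays and eBayes (limma 3.58.1, R 4.3.3), with Benjamini-Hochberg adjustment over 13631 genes and calls at an adjusted p under 0.05. Tests were two-sided. Co-variation used deviations from the group means, with 1 gene's values permuted within groups in all 13824 ways (Python 3.11.15, scipy 1.17.1). The fit and the permutation test were tested on simulated data. Named genes were the members, the 5 nearest and 3 most opposite genes with a symbol for each, the partner genes, and called or smallest-p genes of each list. There were 5 pathway lists (cAMP and calcium signalling, immediate early genes, partners, and energy genes linked to NR4A receptors and to PPARGC1A). The 7 marker lists were fibre, leukocyte, fibroblast, endothelial, smooth muscle and pericyte, adipocyte and blood. The members, lists and rules were chosen with earlier results of these data known.

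Alternatives covered normalization, background correction, the authors' table, filters, probes, scan day, slide, array weights, variance shrinkage and each array left out.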

Additional observations from a re-analysis of the deposited data

How the results depend on the processing

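No paired analysis was possible because the replicate numbers follow accession order and link no bulls across groups. Of 384 alternative values with a test, 351 kept their direction and side of the threshold. The lower DEX+CLEN means of NR4A2, NR4A3 and PPARGC1A kept their direction in every alternative fit, and none passed by limma. On the pooled days other than scan day 2, NR4A3 turned to 2.11 against CTRL and 0.25 against DEX. PPARGC1A turned there to 0.34 against CTRL and stayed lower against DEX (-0.90). Differences near 0 turned sign. For NR4A1 in DEX+CLEN minus CTRL, normexp gave 0.0058, array weights 0.049 and the 2-level scan day term 0.18. For PPARGC1A in DEX minus CTRL, the second probe gave 0.062 and that term 0.68. With scan day in all its levels, DEX minus CTRL was -1.21 for NR4A1 and -1.05 for NR4A2. Both values rest on the only CTRL bull of day 2, replicate 4, which was the highest CTRL bull in both genes. As each array was left out, DEX minus CTRL ran from -0.27 to 0.57 for NR4A1, -0.20 to 0.74 for NR4A2, -0.34 to 1.50 for NR4A3 and -0.57 to 0.55 for PPARGC1A, and NR4A1 ran from -0.35 to 0.24 in DEX+CLEN minus CTRL and -0.65 to 0.19 in DEX+CLEN minus DEX. Against CTRL, DEX+CLEN ran from -2.17 to -0.89 for NR4A2, -3.88 to -1.46 for NR4A3 and -2.37 to -1.21 for PPARGC1A. Against DEX it ran from -2.56 to -1.26, -4.20 to -1.78 and -2.27 to -1.12.

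Correlations were recomputed under a smaller set: quantile normalization, the authors' table, other probes, scan days and arrays left out. NR4A2 with NR4A3 had r = -0.074 on scan day 2, -0.568 without the 2 farthest bulls, -0.074 with scan day in 2 levels removed, and -0.21 to 0.35 as arrays were left out. NR4A2 with PPARGC1A had -0.201, -0.573, -0.016 and -0.18 to 0.50. NR4A3 with PPARGC1A on scan day 2 alone kept r = 0.943 (exact permutation, adjusted p = 0.333). With 36 orders and adjustment over 6 pairs, no pair on its own could pass there, so that p decides nothing. NR4A1 with NR4A2 ran from 0.56 to 0.81 as arrays were left out. The causes of these shifts were not tested, and scan day 2 also leaves fewer arrays. The 2-level scan day term and group means removed together, and the second PPARGC1A probe for co-variation, were chosen after seeing the data.

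The number of genes called moved more than the members did. The main counts were 85, 6 and 2 in DEX minus CTRL, DEX+CLEN minus CTRL and DEX+CLEN minus DEX. Without DEX replicate 1 they were 261, 11 and 72, with array weights 288, 127 and 3, and with the 2-level scan day term 13, 0 and 0 (1191, 1089 and 1523 genes at an unadjusted limma p under 0.05). With 4 bulls a group and within-group SDs of 0.86 to 2.64 on the log2 scale, the intervals of the members leave changes of several-fold undetectable.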
